A study of Homo sapiens with 36 samples.

Results

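In K562 cells, 3956 regions of at least 1 kb, 15.1 Mb in all, lay in γH2AX islands of untreated cells and in none of the aphidicolin lists compared with them. They were chosen on a grid of 200 bp over chromosomes 1 to 22 and X, as bases inside islands of at least 3 of 4 untreated lists and of none of 4 aphidicolin lists, with adjoining bins joined. An island is a broad stretch of enriched reads called by the authors in 1 library, in hg19 coordinates. Without the condition on aphidicolin the same rule gave 4329 regions over 22 Mb, and islands of at least 1 of the 8 lists covered 567 Mb of a span of 3035 Mb. The mirror choice, at least 3 of 4 aphidicolin lists and no untreated list, gave 14999 regions over 74.6 Mb, called aphidicolin-only here. At least 3 lists of each state shared 88 regions over 0.665 Mb.

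The series applied chromatin immunoprecipitation and sequencing to untreated and aphidicolin-treated K562, a long-established leukaemia cell line. The samples are named in 4 ways, numbered here as title sets 1 to 4, and whether these are separate experiments is not given. The rule used γH2AX in K562 of set 1 (untreated 1 and 2, aphidicolin 1 and 2, the latter with the number 0.5 and no unit in the title) and of set 2 (untreated 1 and 3, aphidicolin 1 and 3). The other 14 lists were 1 untreated and 1 aphidicolin γH2AX list each of K562 and of a line named 2A3 (set 3), macroH2A1 in untreated and aphidicolin K562 (set 1, 2 lists each), macroH2A1.2 in untreated and aphidicolin K562 (set 2, 2 lists each), and macroH2A1.2 in untreated K562 with the hairpin sh-RFP, a control, or sh-mH1.2 (set 4, 1 list each). The labels give no time of treatment, do not say what line 2A3 is or whether the hairpin cultures are clones, and do not say that replicates were separate cultures.

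H2AX is a histone H2A variant, and its form phosphorylated at serine 139, γH2AX, spreads over the chromatin around damaged DNA and stalled replication forks. Aphidicolin blocks replicative DNA polymerases and slows forks, which makes common fragile sites break. MacroH2A1 is another H2A variant, which carries a macro domain and is enriched in repressed chromatin, and splicing of its transcript gives macroH2A1.2. In bulk chromatin, fewer cells that carry a mark and less mark per cell cannot be told apart. The lists hold no reads outside islands, so a place outside islands is a place not called, not a place without γH2AX.

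The untreated-only regions were short, with a median of 2.8 kb, quartiles of 1.8 and 4.2 kb and a longest of 503 kb. At least 10 kb was reached by 157 of them (3.97%) and at least 20 kb by 27. Aphidicolin-only regions had a median of 3.4 kb. All values from the 8 lists of the rule describe the choice and carry no test. Of the region length, 33.7% lay in all 4 untreated lists. The rest lay in 3, and the missing list was set 1 replicate 1 for 21.4% of the length, set 1 replicate 2 for 14.7%, set 2 replicate 1 for 21.9% and set 2 replicate 3 for 8.34%. Thus set 1 replicate 1 covered 78.6% of the length, set 1 replicate 2 85.3%, set 2 replicate 1 78.1% and set 2 replicate 3 91.7%. Read density in these regions was close to that of other islands, at 1.13 ± 0.0444 times the mean of all islands of the same list (SD, n = 4).

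At the edges of the rule, 231 regions had exactly 1 kb, and 260 runs of 800 bp fell just short of it. Bases in exactly 2 untreated and no aphidicolin list made up 35.6 Mb, against 15.6 Mb in at least 3. A further 4.83 Mb lay in at least 3 untreated lists and exactly 1 aphidicolin list. In 4.16 Mb of these that list was set 2 replicate 3, the aphidicolin list with the shortest covered length of the 4 (72.8 Mb, against 180 to 235 Mb). Without it the rule gave 4023 regions over 19.3 Mb.

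Regions chosen in 1 title set were also found mostly without aphidicolin in the other. The 3602 regions (23.6 Mb) in both untreated lists and neither aphidicolin list of set 1 were covered by the untreated lists of set 2 at 42.8% and 52.3% of their length, and by its aphidicolin lists at 3.26% (replicate 1) and 17.4% (replicate 3). Those lists covered 2.1, 2.81, 7.27 and 2.40% of the span. Chosen in set 2, 6729 regions (25.6 Mb) were covered at 31.2% and 34.4% by the untreated lists of set 1 and at 2.79% and 2.42% by its aphidicolin lists, whose shares of the span were 1.93, 2.35, 5.92 and 7.75%. In both directions each untreated list lay above each aphidicolin list, with 2 against 2 lists and no test.

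Title set 3 did not show this pattern. Its untreated K562 list covered 2.99% of the length of the 3956 regions and its aphidicolin K562 list 4.13%, while these lists covered 1.27% and 2.13% of the span. By regions, 102 (2.58%) were held by the untreated list, held meaning at least 50% of the length inside its islands, and 103 (2.60%) by the aphidicolin list. Of 1-kb tiles of the span, 1.27% and 2.12% were held in the same way. The 2 lists held 41 regions in common. The name untreated-only therefore describes title sets 1 and 2 and does not extend to set 3 (1 list each, no test). Set 3 lists covered 38.6 Mb (untreated) and 64.6 Mb (aphidicolin), and the part of this shorter coverage in the low shares was not tested.

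**Figure D1:**
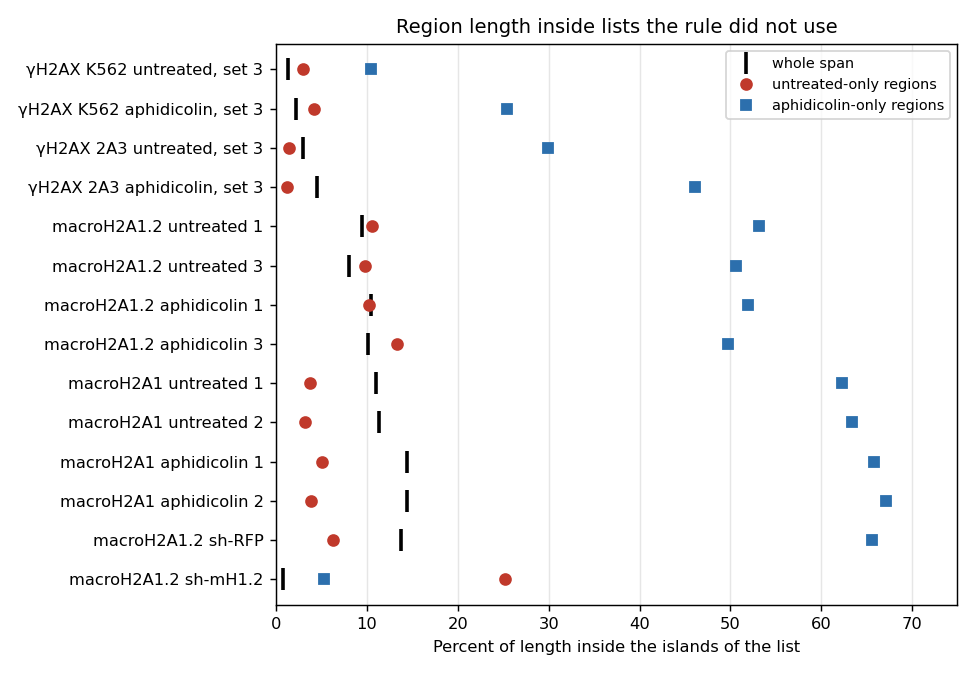
Percent of the length of untreated-only regions (red circles), of aphidicolin-only regions (blue squares) and of the whole span (black bars) inside each of the 14 island lists that the rule did not use, 1 list per row. The sh-mH1.2 list is the 1 row in which the red circle (25.2%) lies to the right of the blue square (5.24%).

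The regions came in clusters. The median distance to the nearest other region was 4.4 kb. Another region lay within 10 kb of 67.4% of them and within 100 kb of 94.2%, and 50 (1.26%) had none within 1 Mb. Joining neighbours at most 100 kb apart gave 581 groups, of which 230 were single regions and 171 were clusters of at least 5 regions. The 171 clusters held 3254 regions (82.3%) and 79.3% of the region length within 60.8 Mb, 2.00% of the span. A cluster spanned a median of 215 kb and held a median of 10 regions. Of 1529 bins of 2 Mb, 264 held an untreated-only region, and 31 bins (2.03%) held 50% of the length. Aphidicolin-only regions were in 679 bins and needed 87 (5.69%). Their nearest neighbour lay at a median of 2 kb, and 83.6% of them were in clusters by the same definition. No test was made of either spacing.

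**Figure D2:**
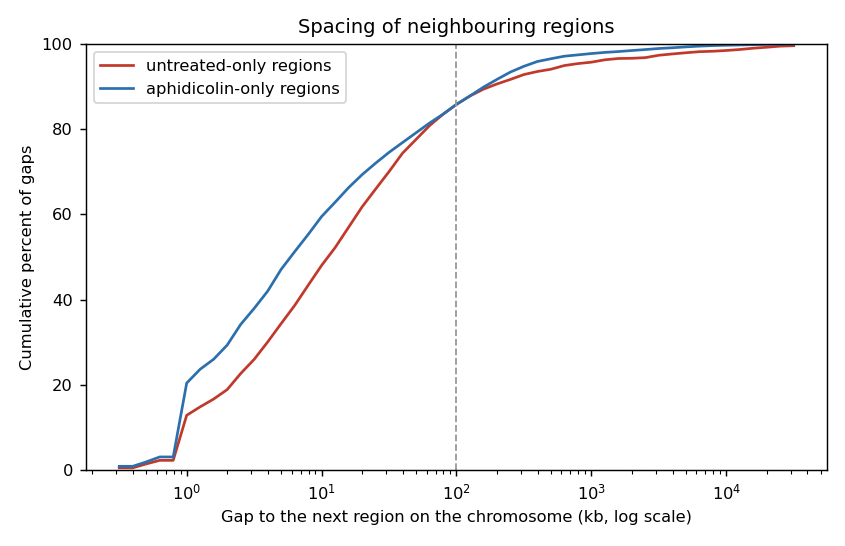
Cumulative percent of gaps between neighbouring regions against gap length in kb (log scale), for untreated-only (red) and aphidicolin-only regions (blue), with the 100 kb limit for clusters as a dashed line. The median gap is 11.2 kb for untreated-only and 6 kb for aphidicolin-only regions, and the curves meet near the dashed line.

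Around a region the untreated signal stayed high well beyond its ends. On average over the 4 untreated lists of sets 1 and 2, 80.5% of region centres lay in an island, 40.9% and 40.5% of the places 10 kb to either side, and 34.6% and 34.4% of those 50 kb away. These lists covered 2.30 ± 0.383% of the span (n = 4). The 4 aphidicolin lists averaged 0% at the centre, by the rule, and between 2.5 and 2.56% at 50 kb, against 5.83 ± 2.42% of the span. These flanks hold other untreated-only regions, where the rule sets aphidicolin to 0, so they are no check outside the rule. The 4 aphidicolin lists also differed: over the span of the clusters, set 1 covered 0.776 and 0.896% and set 2 replicate 1 covered 1.06%, below their shares of the whole span, while set 2 replicate 3 covered 4.46%, above its 2.40%.

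**Figure D3:**
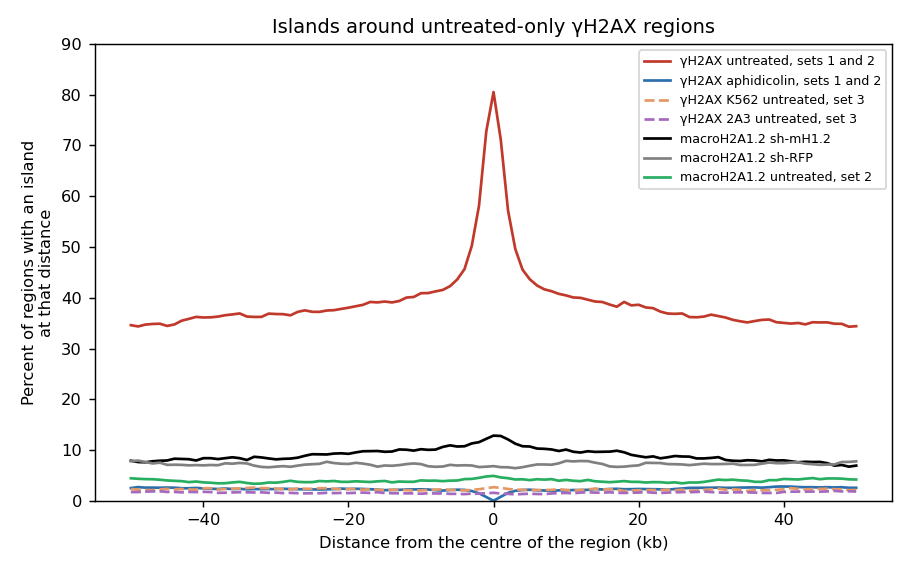
Percent of the 3956 untreated-only regions with an island at each distance (kb) from the region centre, averaged over the lists of each group. The untreated line of sets 1 and 2 peaks at 80.5% and stays near 34% at 50 kb, the sh-mH1.2 line peaks at 12.8%, and the aphidicolin line is at 0% at the centre by construction.

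Chromosomes differed widely. Chromosome 7 held 1194 regions (30.2%) and 45 of the 171 clusters, and 2.40% of its span lay in the regions, against 0.496% of the whole span. Chromosomes 3, 6 and 7 together held 2188 regions (55.3%) on 17.4% of the span. Chromosome 6 came next in share, at 0.892%. The lowest shares were on chromosome 17, with 7 regions and 0.0212% of its span, and chromosome 8, with 22 regions and 0.0793%. The 4 untreated lists were themselves uneven, with means of 8.21% of chromosome 7, 3.48% of 3 and 4.00% of 6. They covered 0.862% of chromosome 8 and 0.314% of 17, against 2.30% of the whole span. Aphidicolin-only regions took 4.75% of chromosome 7 and 3.74% of 6, against 2.46% of the span, but also 4.53% of chromosome 17. Chromosome 22, with 13 untreated-only regions (0.0987%), had the highest share in aphidicolin-only regions, 10.1%. Chromosome 13 had 9 regions, and 2 of these were the longest of all.

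**Figure D4:**
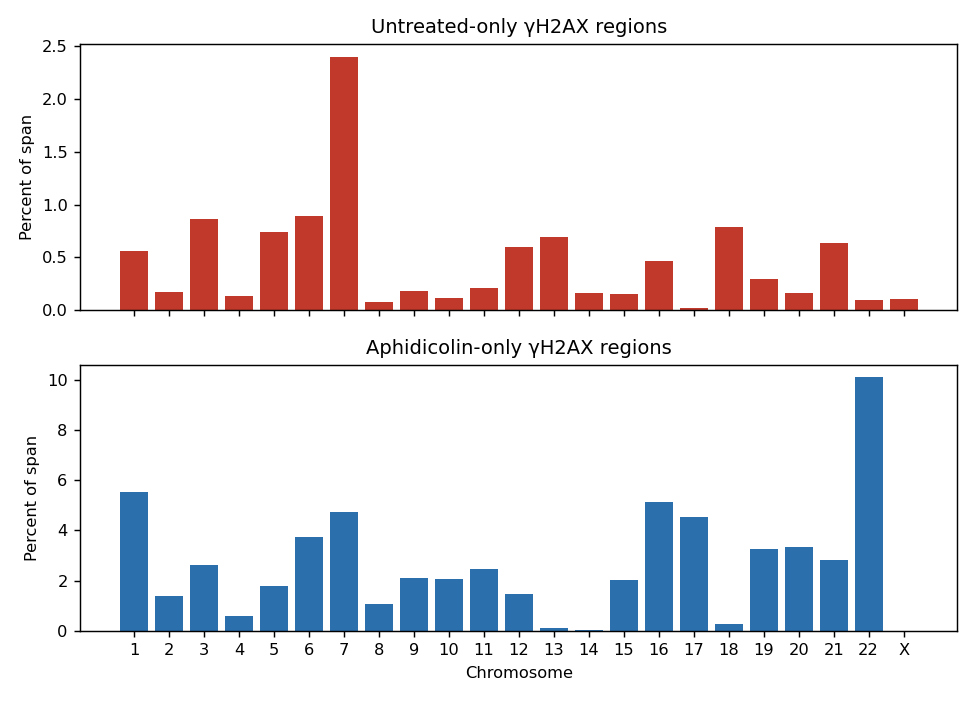
Percent of each chromosome's span in untreated-only (upper panel) and aphidicolin-only γH2AX regions (lower panel); the vertical scales differ. Chromosome 7 is highest in the upper panel (2.40%) and chromosome 22 in the lower (10.1%).

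The cluster with the most region length lay on chromosome 3, chr3:172794601-176577800, with 178 regions (545 kb) over 3783 kb. Untreated lists covered 22.6 and 35.6% of its span in set 1 and 40.7 and 45.2% in set 2. Aphidicolin lists covered 0.169 and 0.222% in set 1 and 1.48 and 2.82% in set 2, so the states did not overlap, as the choice favours. All 4 lists of set 3 had 0% of it. The next, chr12:74697201-75841800, held 119 regions and was denser, with untreated coverage of 58.0, 71.7, 84.3 and 82.5%. Aphidicolin coverage there was 0.681, 0.192 and 0%, but 28.1% in set 2 replicate 3. The sh-mH1.2 list covered 21.9% of this cluster and held 25 of its regions, while the sh-RFP list covered 8.56%.

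The clusters at chr6:47742801-49332400 (129 regions) and chr5:11832801-12477600 (70 regions) had mean untreated coverage of 46.7 ± 10.8% and 73.9 ± 5.43% (n = 4). Replicate 3 of set 2 was again the highest aphidicolin list, at 10.7 and 17.7%, and the other 3 lay between 0 and 1.08%. At chr1:107624201-108456000 (69 regions) untreated coverage was 59.6 ± 13.5%. Of the 8 clusters named, it had the highest mean macroH2A1.2 coverage (16.9 ± 9.61%, n = 4 lists of set 2) and macroH2A1 coverage (14.4 ± 5.47%, n = 4). The other 3 lay on chromosome 7, at 84595601 to 86481400 (105 regions), 108319201 to 110141600 (99 regions) and 78998601 to 79891200 (60 regions). Their untreated means were 43.8 ± 20.6, 38.6 ± 12.6 and 48.2 ± 9.72% (n = 4). In all 8 clusters the lowest untreated list, at 21.2% or more, lay above the aphidicolin lists of set 1 and replicate 1 of set 2, at 4.45% or less. Aphidicolin replicate 3 of set 2 reached 28.1%, in the chromosome 12 cluster, where the lowest untreated list had 58.0%. The clusters were chosen with these same lists, which favours this order, so it is a description and no check.

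**Figure D5:**
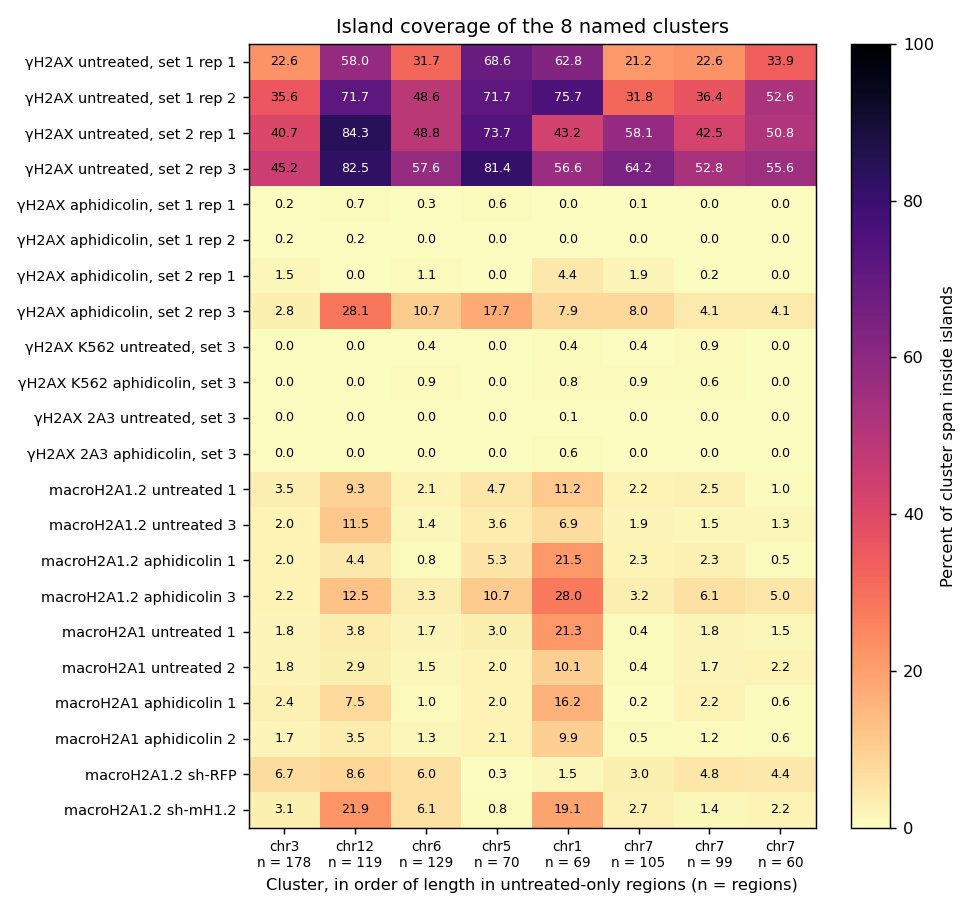
Percent of each named cluster's span (columns, ordered by length in untreated-only regions) inside islands of each list (rows), with darker colours for higher values. The 4 untreated rows of sets 1 and 2 lie between 21.2 and 84.3%, and all set 3 rows are below 1%.

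The longest regions were of another kind. The 2 longest, chr13:91496401-91999600 (503 kb) and chr13:92001401-92257600 (256 kb), adjoin nearly end to end. Each untreated list covered 99.7% or more of both. Both macroH2A1.2 lists of untreated cells covered 97.2 to 100% of them, and those of aphidicolin cells 99.96% of the first in each library. For the second these values were 69.6 and 95.9%. The macroH2A1 lists covered 0% of the first in all 4 libraries, and of the second 32.2% in aphidicolin replicate 1 and 0% in the other 3. The sh-RFP list and all set 3 lists had 0% of both, and the sh-mH1.2 list 100%. The lists that covered this segment thus came from sets 1, 2 and 4, and macroH2A1.2 lists of set 2 covered it in both states.

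The other 8 of the 10 longest, 28.4 to 46.4 kb, lay within 2 Mb of a stretch of at least 2.5 Mb in which none of the 22 lists had an island, as did the first region on chromosome 13. There were 43 such stretches, at least 1 on each chromosome. They were not matched to centromeres or assembly gaps. Of all regions, 504 (12.7%, and 23.3% of the length) lay within 2 Mb of one, against 4.65% of the span, a measure made after these values were seen. They were longer, with a median of 4 kb against 2.6 kb for the rest. Among the longest were chr14:19002401-19048800 (46.4 kb), chr5:46324801-46366400 (41.6 kb) and chr7:61727201-61763200 (36.0 kb). In set 3 the aphidicolin K562 list held the region on chromosome 14 at 100% and that on chromosome 5 at 55.8%, while its untreated list had 0% of each. No filter for mappability was applied, and its part in these regions was not tested.

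The sh-mH1.2 list, a macroH2A1.2 precipitation from cells labelled with that hairpin, held more of the regions than any other list outside the rule. It covers 23.7 Mb, 0.781% of the span. It held 508 of the 3956 regions (12.8%, 95% exact binomial interval 11.8 to 13.9%, counting error alone with regions taken as independent). Of 1-kb tiles of the span, 0.781% were held. By length 25.2% of the regions lay in it, 32.2 times its share of the span, and 16.0% of the list lay in the regions. The sh-RFP list, at 13.8% of the span (13.8% of tiles), held 270 regions (6.83%) and 6.25% of the length, 0.454 times its share. Of aphidicolin-only regions, the sh-mH1.2 list held 127 (0.847%) and the sh-RFP list 9708 (64.7%). Regions shared by both states were covered more than the untreated-only regions: the sh-mH1.2 list held 27 of 88 (30.7%) and 68.5% of their length. It covered 37.8% of the length of the 4329 regions chosen without the condition on aphidicolin. The overlap with sh-mH1.2 was thus not particular to regions absent under aphidicolin. With 1 list each there was no test.

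The regions held after sh-mH1.2 were mostly not those of the control hairpin. Of the 508, 45 were also held by sh-RFP and 460 had no base in that list. In none of the 9 other macroH2A lists did 370 of them have a base, which also held for 3168 of all 3956 regions (80.1%). Length and position went with being held. The sh-mH1.2 list held 7.87% of regions under 2 kb, 9.87% from 2 to 5 kb, 23.2% from 5 to 10 kb and 49.7% of those of 10 kb or more. For sh-RFP these shares were 8.77, 6.34, 4.63 and 7.64%. Within 2 Mb of an empty stretch the sh-mH1.2 list held 275 of 504 (54.6%), and elsewhere 233 regions (6.75%), 11.5% of the length there. How much of the whole span near these stretches lay in either hairpin list is not given here, so this split has no background. The sh-RFP list held 55 (10.9%) and 215 (6.23%), 5.45% of the length elsewhere. By count, the 2 hairpin lists thus held nearly equal shares of regions away from these stretches, and sh-RFP the larger share under 2 kb. By length the shares away from them were 11.5% and 5.45%. The lists differ in size, at 0.781% (sh-mH1.2) and 13.8% (sh-RFP) of the span, so equal counts are not equal relative to the span. Without chromosome 13 the sh-mH1.2 list covered 21.1% of the length, 29.9 times its share of the span. All 10 longest regions were held, at 62.7 to 100% of their length. Clustered regions were held about as often as the others (12.9% and 12.7%), and 100 of the 171 clusters had a held region.

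Agreement among untreated lists also went with the sh-mH1.2 list. Of the 1253 regions found when all 4 untreated lists were required, it held 331 (26.4%) and 47.9% of the length. The sh-RFP list held 68 of these (5.43%). Reads in islands of the sh-mH1.2 list came to 2.02 M (M, 1e6 reads), against 75.2 M for sh-RFP, and its depth in all is unknown. Whether the part of the list that lies in these regions is macroH2A1.2 or signal that remains without it was not tested.

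Line 2A3 had few of the regions. Its untreated list, 3% of the span (3% of tiles), held 63 (1.59%, exact binomial interval 1.23 to 2.03%) and 1.42% of the length. Its aphidicolin list, 4.45% of the span (4.44% of tiles), held 45 (1.14%, interval 0.831 to 1.52%) and 1.14% of the length. Both intervals give counting error alone and take regions as independent, though 82.3% of them were in clusters. They do not measure the spread between cultures of 2A3. The 2 lists held 39 in common, and 50 of the 63 were also held by the untreated K562 list of the same title set. Relative to the span, 2A3 covered 0.475 times (untreated) and 0.256 times (aphidicolin) its share, and K562 of set 3 2.35 and 1.94 times. Aphidicolin-only regions were covered by 2A3 at 29.9% untreated and 46.1% under aphidicolin. All 4 lists of set 3 together held 32 regions, and 179 (4.52%) were held by at least 1.

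The regions with most bases in the 2A3 lists were the same 5 for both treatments. They were chr4:190617401-190640000 (22.6 kb), chr3:75758401-75771800 (13.4 kb), chr4:190664601-190674400 (9.8 kb), chr1:248304601-248312800 (8.2 kb) and chr4:190538401-190545200 (6.8 kb). Both 2A3 lists covered 100% of each, except the region on chromosome 1, at 87.8 and 70.7%. The untreated K562 list of set 3 also covered them, at 58.5% on chromosome 1 and 100% elsewhere. Thus 3 of the 5 were neighbours near the end of chromosome 4. None of the 8 named clusters had a region held by either 2A3 list.

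MacroH2A lists other than sh-mH1.2, from untreated and aphidicolin K562, seldom held the regions. Untreated macroH2A1.2 lists covered 10.5 and 9.83% of the length (mean 10.2 ± 0.475%, against 8.69 ± 1.03% of the span), and without chromosome 13 the mean was 5.36 ± 0.468%. They held 5.46 and 4.27% of the regions, against 9.42 and 7.96% of tiles. Aphidicolin lists covered 10.2 and 13.4% of the length and held 4.65 and 7.43% of the regions, against 10.5 and 10.1% of tiles. MacroH2A1 covered 3.76 and 3.17% of the length untreated and 5.03 and 3.84% under aphidicolin. It held 3.51, 2.88, 4.07 and 3.34% of the regions, against 10.9, 11.3, 14.4 and 14.4% of tiles. In 3168 regions (80.1%) none of the 9 lists other than sh-mH1.2 had a base. The share of the span outside all 9 lists is not given here, so this count has no background. Aphidicolin-only regions were covered at 49.7 to 67.1% by the 8 macroH2A lists of sets 1 and 2.

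Whether macroH2A changed near the regions under aphidicolin was tested in windows of 100 kb, with limma on the percent of each window in islands. The regions' midpoints fell in 1266 windows, of which 517 were covered in at least 2 of 4 macroH2A1.2 libraries. Of these 517, macroH2A1.2 rose in 46 (8.90%) and fell in 4 (0.774%) at adjusted p 0.05 (limma, Benjamini-Hochberg over 12335 windows), against 15.2% and 6.73% of all tested windows. For macroH2A1, 12 of 470 rose (2.55%) and 0 fell, with 5 lower at an unadjusted p under 0.05, against 6.71% and 0.11% of all. In this fit the shares of higher windows were below the background for both targets, and the share of lower windows for macroH2A1.2. Lower macroH2A1 windows, 14 of 12732 in all, were too few to compare. A window with little coverage in untreated cells has little room to fall, and the part of this in the lower calls was not tested. The median difference was 3.1 points for macroH2A1.2, against 1.5 over all windows, and 1.6 for macroH2A1, against 4.9. With the title number as a replicate block in limma, macroH2A1.2 rose in 13 (2.51%, against 3.65% of all windows) and fell in 0 (against 1.13%), and macroH2A1 rose in 0 (0% of all), with 79 and 58 higher at an unadjusted p under 0.05. On island reads shared out to windows, edgeR called macroH2A1.2 higher in 68 (13.2%, against 16.1%) and lower in 26 (5.03%, against 13.6%). DESeq2 called it higher in 119 (23%, against 26.6%) and lower in 50 (9.67%, against 23.7%). For macroH2A1, edgeR called 4 higher (0.851%, against 0.11%) and 0 lower (against 0%). Its higher windows, 14 of 12732 in all, were also too few to compare. DESeq2 called 42 higher (8.94%, against 21.2%) and 51 lower (10.9%, against 18.3%), so lower calls outnumbered higher ones there, unlike in limma. In windows of 20 kb limma called macroH2A1.2 higher in 20 of 471 (4.25%, against 7.38%) and lower in 4 (0.849%, against 3.88%), and macroH2A1 higher in 3 of 356 (0.843%, against 0.915%) and lower in 1 (0.281%, against 0.0415%). These p-values measure the spread between libraries, which may be technical.

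Leaving out 1 library moved these counts. Without untreated replicate 1, aphidicolin replicate 1 or aphidicolin replicate 3, macroH2A1.2 rose in 0 windows that hold regions, and without untreated replicate 3 in 16 (3.38%, against 6.68% of all windows; limma). At an unadjusted p under 0.05, 72, 88 and 60 were higher in the first 3 cases. For macroH2A1 the limma count was 0 without any 1 of its 4 libraries, with 39 to 62 higher at an unadjusted p under 0.05. Wherever leaving out a library gave 0 here, limma also called 0 of all tested windows. The called windows with the most region length, named after their values were seen, were chr7:61700001-61800000 for macroH2A1.2 and chr1:149000001-149100000 for macroH2A1. The first holds 70.0 kb of regions, and macroH2A1.2 coverage was 0 and 3.8% untreated and 44.6 and 31.4% under aphidicolin (36.1 ± 5.46 points, SE; adjusted p = 0.0308, limma). In the second, with 29.8 kb of regions, macroH2A1 went from 3 and 0% to 35.6 and 44.4% (38.5 ± 3.82 points, SE; adjusted p = 0.0410, limma). At chr16:46400001-46500000, with 24.0 kb in 4 regions, both targets rose, macroH2A1.2 from 0 and 5.4% to 70.8 and 81.0% (adjusted p = 0.0118, limma) and macroH2A1 from 0% in both to 63.8 and 62.0% (adjusted p = 0.0379, limma). The windows on chromosomes 7 and 16 lay within 2 Mb of an empty stretch.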

How the data were processed

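Deposited lists hold the read counts per island, made by the authors for 22 precipitated libraries; the settings in the list names are 200 bp (window), 600 bp (gap) and 0.01 (FDR). The submitters' processing notes name Bowtie2 2.1.0, SICER 1.1, deepTools and hg19, without role or order. The sh-RFP list is named as merged, with no word on its components. The 14 input samples were not analysed here. Lists hold reads inside islands, so library depth is unknown.

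Regions were found and measured with Python 3.11.15, NumPy 2.4.6, pandas 2.3.3 and SciPy 1.17.1. Coordinates are 1-based. The span runs to the last island end of each chromosome. Windows of 100 kb, covered in at least 2 of 4 libraries, were compared with limma 3.58.1 in R 4.3.3, with edgeR 4.0.16 and DESeq2 1.42.0 as alternatives. Named regions were the 10 longest, the 8 clusters with most region length, the 5 regions with most bases in each of the sh-mH1.2 and 2A3 lists, and the 2 chromosomes with the highest and the 2 with the lowest share. The regions, lists and tests were chosen with earlier results of these data known. Leaving out chromosome 13 or the flanks of empty stretches was chosen after seeing the data. No hg19 annotation was used, so regions were not placed on genes and no sequence is given.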

Additional observations from a re-analysis of the deposited data

Results flagged for a closer look

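Title set 3 stood apart from the other K562 γH2AX lists. Its untreated list covered 2.99% of the length of the untreated-only regions, while the other 4, which chose the regions, covered 78.1 to 91.7%. Its aphidicolin list covered 4.13%, while the other 4 are at 0% by the rule. Of 4 such checks made, chance flags about 1 in 20, and here the choice of regions sets the gap.

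Aphidicolin minus untreated coverage was 1.14 points in K562 of set 3 and -0.285 points in line 2A3, opposite directions with 1 list per state in each line. These points do not allow for list size, and in both lines the aphidicolin list covered more of the span. Relative to the share of the span, coverage was lower under aphidicolin in both lines. It was 2.35 times untreated and 1.94 times under aphidicolin in K562, and 0.475 and 0.256 times in 2A3. The difference between the lines was not tested.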

How the results depend on the processing

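Requiring all 4 untreated lists gave 1253 regions in 67 clusters, and adding title set 3 to the rule gave 1262 in 66. Leaving out 1 aphidicolin list gave 3969 to 4062 regions and 171 to 181 clusters. Leaving out 1 untreated list gave 1546 to 2383 regions and 89 to 117 clusters, with the fewest without set 2 replicate 3. The rule then required all 3 remaining untreated lists. These lower counts thus come with a stricter rule and do not measure the weight of 1 library alone. The percent of regions held by sh-mH1.2 was 12.1 to 12.9 without 1 aphidicolin list and 16.3 to 22.3 without 1 untreated list. It was 26.4 with all 4 lists, 14.8 with runs of at least 2 kb, 14.8 at equal covered length and 24.6 with set 3 added. Without the flanks of empty stretches it was 6.75, for any base 16.3 and for 90% of the length 9.18. At equal covered length the 2A3 lists held 2.30% (untreated) and 1.71% (aphidicolin) and the untreated K562 list of set 3 3.36%. With set 3 added the aphidicolin 2A3 list held 0.713%, and the untreated K562 list, then part of the rule, 6.10%; for any base the latter was 3.51% and for 90% of the length 1.79%.

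Windows with higher macroH2A1.2 numbered 15 with all 4 lists, 16 with set 3 added, 20 in windows of 20 kb and 119 by DESeq2, and 0 to 56 on leaving out 1 library. Lower windows numbered 0, 2 and 0 with all 4 lists, runs of 2 kb and set 3 added, 26 by edgeR, 50 by DESeq2 and 0 to 5 on leaving out 1 library. For macroH2A1, higher windows numbered 4 with all 4 lists, 7 with runs of 2 kb, 3 with set 3 added, 3 in windows of 20 kb, 4 by edgeR, 42 by DESeq2 and 0 to 15 on leaving out 1 library. Lower windows numbered 1 in windows of 20 kb and 51 by DESeq2. With the title number as a replicate block, macroH2A1.2 was higher in 13 windows and lower in 0, and macroH2A1 higher in 0. For a check of pairing, the mean of its state was subtracted from each library in each window. These deviations, not the coverage itself, correlated between same-numbered libraries of the 2 states at -0.0898 (macroH2A1.2) and 0.0105 (macroH2A1). The labels do not say that numbers mark a shared batch. The balance for macroH2A1 turned with the tool, from 12 higher and 0 lower by limma to 42 and 51 by DESeq2, and edgeR had 30 in each direction at an unadjusted p under 0.05. The cause of these shifts was not tested, and the unknown library depth limits what an uncalled region means.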

Other observations

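The share of regions held by the sh-mH1.2 list differed between chromosomes. It held 26 of 29 regions on chromosome 19 (89.7%) and 43 of 67 on chromosome 16 (64.2%). On chromosome 7 it held 76 of 1194 (6.37%) and on chromosome 17 0 of 7. The list covered 0.752% of chromosome 19, 1.02% of 16, 0.955% of 7 and 0.313% of 17. The held share on chromosome 7 was thus also above the share of that chromosome in the list. These chromosomes were named after their values were seen, and no test was made.

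The untreated 2A3 list held 36 of the 3254 clustered regions (1.11%) and 27 of the 702 others (3.85%). On chromosome 1 lay 26 of its 63 regions, 6.18% of the 421 regions there, while the list covered 7.29% of that chromosome. Within the regions, reads per kb in the sh-mH1.2 list were 0.897 times the mean of that list, while in the sh-RFP list they were 1.70 times its mean.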
